A study of Gallus gallus with 2 samples.

Results

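PTPRC encodes CD45, the receptor-type protein tyrosine phosphatase carried on the surface of nucleated blood cells. The gene was followed through every row of the splicing table that bears its name, which came to 1 of 10652 listed events and 1 of 5524 gene names. That row is a cassette exon, an exon that is kept or skipped as a whole. Splicing was read from RNA sequencing of DT40, a line of chicken B lymphoblasts whose tissue of origin is the bursa. One library came from cells deficient in SRSF10 (SRSF10-/-, here KO), a splicing regulator that belongs to the serine/arginine-rich (SR) proteins, and 1 from wild-type cells (WT). The labels give no treatment and no clone number for either line, and with 1 library per genotype no difference below has a replicate check. The gene was chosen by its exclusion and inclusion counts in these same libraries, so its levels are a description and carry no test.

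CD45 removes the inhibitory phosphate from the tail of Src family kinases such as LYN in B cells and LCK in T cells, and thereby sets the threshold for signals from the antigen receptors. In mammals its outer, N-terminal stretch is encoded in part by neighbouring exons called A, B and C, which are kept or skipped according to cell type and activation state. The longest form is typical of mammalian B cells and the form without these exons is typical of activated and memory T cells. Heavily O-glycosylated and sialylated residues lie in this stretch, and galectins and CD22 bind glycans of CD45. SRSF10 is known in mammals both as a repressor of splicing, in its dephosphorylated state, and as an activator of particular exons.

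The PTPRC exon lies on chromosome 8 at positions 2045308 to 2045445 of the galGal4 build, as the authors list it. Counted with both end positions it is 138 nt long, a multiple of 3 that amounts to 46 codons, so its skipping alone leaves the reading frame of the flanking exons in register if the whole exon is coding. A minimum of 20 reads per library left 2175 cassette exons for testing, of which 57.3% had a length divisible by 3. Their median length was 102 nt, 72% were shorter than the PTPRC exon, and 23 exons, PTPRC included, were exactly 138 nt long. The exon's number within the gene, its coding status and its relation to mammalian exons A, B and C were not analysed here. None of the 10318 other events with 2 numbers per library overlapped its position, so the row shares no listed exon with any of these.

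Skipping of the PTPRC exon was rare in KO cells and common in WT cells. In the KO library 28 reads supported exclusion and 1383 supported inclusion. In the WT library 244 reads supported exclusion and 712 supported inclusion. The inclusion level, inclusion reads as a percent of both kinds, was 98.0% in KO (97.1 to 98.7) over 1411 reads, against 74.5% in WT (71.6 to 77.2) over 956 reads. These are 95% Clopper-Pearson intervals, which cover counting error only, and they did not overlap. Expressed as skipping, the level was 1.98% in KO (1.32 to 2.86) and 25.5% in WT (22.8 to 28.4). KO was thus 23.5 percentage points higher in inclusion, and its skipping level was lower by a factor of 12.9. There were 49.4 inclusion reads for each exclusion read in KO and 2.92 in WT. The table does not state how inclusion reads were counted, and if they are halved, since 2 junctions can support inclusion and 1 exclusion, the difference becomes 36.8 points, with skipping at 3.89% in KO and 40.7% in WT.

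**Figure D1:**
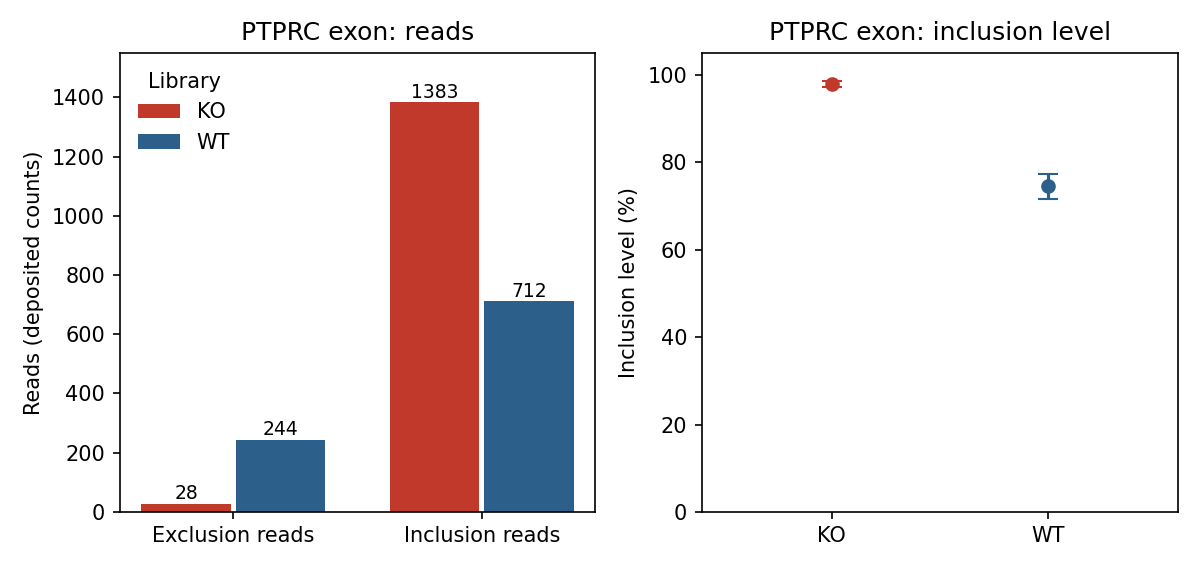
Left, deposited exclusion and inclusion reads of the PTPRC exon in the KO and WT libraries (1 library each). Right, its inclusion level in percent, with bars for the 95% Clopper-Pearson interval. KO has 28 exclusion reads against 244 in WT, and an inclusion level of 98.0% against 74.5%.

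Both kinds of read differed between the libraries, in opposite directions. The KO library held 0.115 times the exclusion reads of WT, and 1.94 times its inclusion reads. Reads listed over the whole table were nearly equal between the libraries, at 2170310 in KO and 2178695 in WT. Per 1000000 listed reads, exclusion of the PTPRC exon took 12.9 in KO (8.57 to 18.6) and 112 in WT (98.4 to 127). Inclusion took 637 in KO (604 to 672) and 327 in WT (303 to 352) on the same scale. The 2 kinds together came to 650 in KO (617 to 685) and 439 in WT (411 to 468), a ratio of 1.48. In bulk samples, more RNA of a gene per cell and more cells that carry it cannot be told apart. If 2 junctions were counted for inclusion and 1 for exclusion, this total would also rise with the inclusion level at equal RNA. The part of the inclusion level in the ratio was not tested. For all tested cassette exons the ratio of KO to WT reads had a median of 1.03 and quartiles of 0.817 and 1.27, and 292 exons (13.4%) exceeded the ratio of PTPRC, 1.48.

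A lower ratio of KO to WT exclusion reads than that of PTPRC was seen in 1 other exon of the set compared here. Besides PTPRC, 285 tested cassette exons had at least 100 exclusion reads in WT, and their ratio of KO to WT exclusion reads had a median of 0.916 with quartiles of 0.767 and 1.09. The cut was set on WT alone, which favours low ratios, and PTPRC passes it through WT only. Its place in the set rests on the counts by which the gene was chosen, and is a description. The exon with a lower ratio than PTPRC was that of EPRS, the glutamyl-prolyl-tRNA synthetase, with 0 exclusion reads in KO and 122 in WT. The exon of GLCCI1, a glucocorticoid-induced gene, came next, with 24 exclusion reads in KO and 170 in WT. Its inclusion reads were also fewer, at 250 in KO and 1386 in WT, so its inclusion level was 91.2% in KO and 89.1% in WT. PTPRC, by contrast, had more inclusion reads in KO, and 23 of the 273 other exons with any inclusion read in WT had a higher inclusion ratio than its 1.94.

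**Figure D2:**
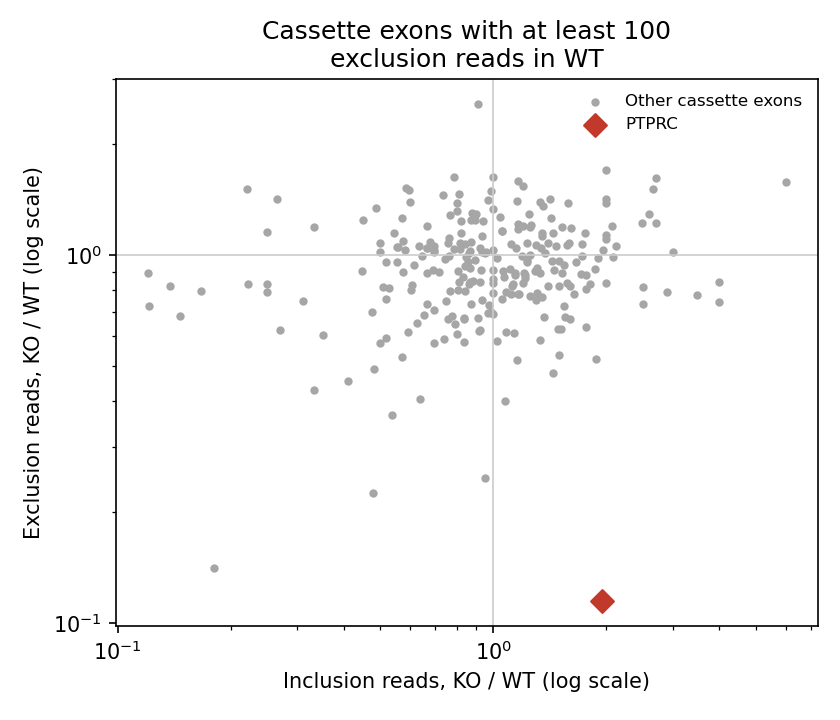
Ratio of KO to WT exclusion reads (vertical, log scale) against the ratio of inclusion reads (horizontal, log scale) for cassette exons with at least 100 exclusion reads in WT, where 25 of 286 exons with a ratio of 0 or no inclusion read in WT are not drawn. PTPRC stands at 0.115 for exclusion and 1.94 for inclusion, below and to the right of the cloud. The cut on WT reads alone favours low exclusion ratios.

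Depth at the PTPRC exon was high for this table. By the smaller of its libraries it ranked 74 among the 2175 tested cassette exons, whose median was 100 reads in KO and 97 in WT. The 191 cassette exons with 500 or more reads per library served for comparison. They include PTPRC itself and exons that nearly all reads kept or skipped. Their median absolute difference between KO and WT was 0.659 points, 90% differed by less than 7.39 points, and 14 differed by 10 points or more. None of the other 190 exons had a wider increase than PTPRC, and 1 had a wider difference, in IMPDH2, which encodes an IMP dehydrogenase, and that exon was 41.7 points lower in KO. Of the same deep exons, 41 besides PTPRC had a WT level between 50% and 90%, as PTPRC did. Their absolute differences ran from 0.0631 to 41.7 points with a median of 4.95 and quartiles of 2.47 and 8.67, and inclusion was higher in KO in 25 and lower in 16. Over all tested cassette exons, where shallow exons vary more, 36 had a wider increase than PTPRC. PTPRC was chosen by these counts, and the comparisons by depth after their values were seen, so its place in them is a description.

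A call of changed required 10 points of difference and a p under 0.05 from Fisher's exact test (two-sided, exclusion against inclusion reads), adjusted by Benjamini and Hochberg's method across the 6089 tested events. The test compares 2 libraries, not 2 genotypes. It called 69 cassette exons higher in KO (3.17%) and 63 lower (2.90%). The 1 PTPRC event is among the 69, a membership that is fixed by the way the gene was chosen. In the authors' deposited table the PTPRC exon has an adjusted p-value of 0.0258, one of 130 cassette exons of 3211 (4.05%) under 0.05. A smaller adjusted p-value than that of PTPRC stands beside 80 of the tested cassette exons in the authors' deposited table. All 80 had fewer reads in their smaller library than PTPRC, with a median of 108.5 and a maximum of 670 against 956, and 43 of them also had a smaller difference. By reads in the smaller library PTPRC ranked 74 among the 2175 tested cassette exons, so most of these exons had fewer reads than it. The sources used here do not say how the authors obtained this p-value.

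The exons most like that of PTPRC were sought by the distance between their pairs of KO and WT inclusion levels, over 968 exons of other genes that had 100 reads or more per library. The nearest was a 328 nt exon of SRGAP3, a GTPase-activating protein, at 90.1% in KO (87.5 to 92.4) and 76.8% in WT (71.7 to 81.3), which is 8.21 points away. A 117 nt exon of GRB10, an adaptor of growth factor receptors, had 92.3% in KO and 80.3% in WT. A 76 nt exon of NR2C1, an orphan nuclear receptor, had 181 of 201 reads for inclusion in KO and 169 of 221 in WT. These 3 exons reached lower levels in KO than PTPRC did. A 135 nt exon of COX7A2L, a factor of respiratory supercomplexes, had 94.6% in KO (92.5 to 96.2) and 81.9% in WT (79.0 to 84.6), with 34 exclusion reads in KO and 137 in WT. A 107 nt exon of ZBTB8OS, the archease that assists the tRNA ligase, had 98.7% in KO (95.5 to 99.8) and 83.1% in WT (77.4 to 87.9), 8.65 points away. Its KO interval includes the PTPRC level of 98.0%, while its WT interval lies above the PTPRC level of 74.5%. Likeness here rests on 2 libraries only, and the differences of all 5 exons, from 11.9 to 15.6 points, were smaller than that of PTPRC. The exon of GRB10 was not called changed. SRGAP3, NR2C1 and ZBTB8OS lost their calls once the spread above counting noise, described below, was divided out, and COX7A2L kept its call.

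**Figure D3:**
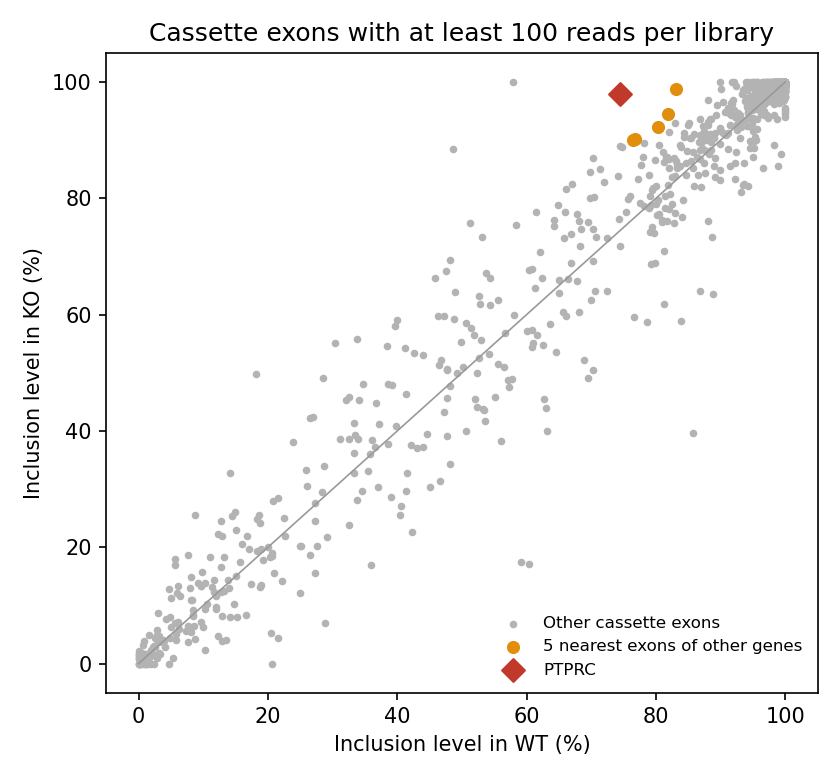
Inclusion level in KO against inclusion level in WT, in percent, for cassette exons with 100 reads or more per library, with the line of equal levels. PTPRC, at 98.0% in KO and 74.5% in WT, lies above the line and farther from it than its 5 nearest exons of other genes.

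Events near PTPRC were also compared between the libraries. Among events with 2 numbers per library, 40 others under 14 gene names lie within 1000 kb on chromosome 8, and 16 events in 7 genes had enough reads. None of the 16 was called changed, against 4.70% of all tested events. With 16 events, no calls cannot be told from that share. The best covered neighbour, ASPM, a mitotic spindle protein, had a cassette exon at 78.7% in KO (77 exclusion and 285 inclusion reads) and 78.2% in WT (72 and 258 reads). The widest of the 16 differences belonged to a cassette exon of ZBTB41, a zinc finger gene, at 58.3% in KO over 10 exclusion and 14 inclusion reads, and 26.1% in WT over 17 and 6 reads. It was not called.

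Other tyrosine phosphatases gave no called event. Their lists and those below were chosen with earlier results of these data known, so shares set beside all tested genes are descriptions. Of 18 other receptor-type phosphatases, 8 had a listed event and 4 a tested one, and 0 of these 4 genes were called, against 7.05% of all 3461 tested genes. With 4 genes, 0 calls cannot be told from that share. Their 8 tested events had a median absolute difference of 2.07 points, against 2.36 over all tested events. A 150 nt cassette exon of PTPRA, a phosphatase that also activates Src family kinases, was included in 170 of 170 reads in KO and in 159 of 160 in WT. A 27 nt exon of PTPRF, a phosphatase of cell adhesion, was included in 1 of 36 reads in KO and 7 of 44 in WT, 13.1 points lower in KO with a Fisher's exact adjusted p of 0.442. Of 18 cytoplasmic phosphatases, 6 were listed and 4 tested, again with 0 called. PTPN2, which dephosphorylates JAK kinases, held the deepest event, of undefined type, at 98.6% in KO (1587 reads) and 98.1% in WT (1453 reads).

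The kinases that CD45 acts on and the proximal receptor pathway had few tested events and 1 call. Of 16 Src family kinases and their regulators, 3 were listed and 2 tested, with 0 called, where 7.05% of all tested genes were called. With 2 genes, 0 calls cannot be told from that share. LYN, the main Src family kinase of B cells, had an alternative 5' splice site at 56.8% in KO (180 exclusion and 237 inclusion reads) and 47.3% in WT (118 and 106 reads), with a Fisher's exact adjusted p of 0.239. CSK, the kinase that places the phosphate CD45 removes, had an undefined event at 41.2% in KO (2006 reads) and 45.0% in WT (1391 reads), with a Fisher's exact adjusted p of 0.266. Of 34 genes of B-cell receptor signalling, 14 were listed and 10 tested. Of these 10 genes 1 was called, with higher inclusion in KO, a share near the 7.05% of all tested genes, and that call was lost once the spread above counting noise, described below, was divided out. GRB2 and INPP5D, an adaptor and an inositol phosphatase of the pathway, gave 53.6% and 91.0% in KO, against 54.5% and 86.9% in WT, and neither was called. The gene listed as BLNK, the adaptor downstream of SYK, carries the symbol SH2D6 in the current gene table, with BLNK as its synonym. It was included in 1599 of 1599 reads in KO and 1627 of 1628 reads in WT at its deepest event.

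A list chosen as splicing factors reported at CD45 in mammals had a called event in 4 of 19 tested genes, out of 30 on the list. It also holds the kinases GSK3A and GSK3B, and GSK3B is among the 19. The calls were 2 higher and 2 lower in KO, beside 3.81% higher and 3.24% lower among all tested genes. The list was chosen with earlier results of these data known, so its share does not test for enrichment. Cassette exons varied more between the libraries than counting gives, by a factor of 3.97 in their median chi-square. Such factors used only events with enough expected reads, and came from the same KO and WT libraries. With each chi-square divided by the factor of its event type, none of the 4 kept its call (adjusted p from 0.294 to 1). The factor cannot separate genotype from other differences between the libraries, so a lost call is not shown to be noise. At an intron of SFPQ, a factor that binds CD45 transcripts in human T cells, listed inclusion rose to 66.2% in KO (98 exclusion and 192 inclusion reads), against 49.5% in WT (193 and 189 reads; Fisher's exact adjusted p = 0.000624). For introns the table does not define inclusion, so this does not give the direction of retention. An undefined event of SFPQ that adjoins this intron differed the other way, at 55.6% in KO (79 and 99 reads) and 66.1% in WT (99 and 193 reads), and was not called. Its inclusion reads nearly equal the exclusion reads of the intron, so the SFPQ rows are not independent. SRSF6, an SR protein, rose at an alternative 3' site to 64.3% in KO (25 and 45 reads), against 26.9% in WT (38 and 14 reads; Fisher's exact adjusted p = 0.00181). A 34 nt exon of PTBP2, a polypyrimidine tract-binding protein, fell to 81.8% in KO (6 and 27 reads), against 98.9% in WT (1 and 91 reads; Fisher's exact adjusted p = 0.0266). A 39 nt exon of the gene listed as LOC426023, which the current gene table names PCBP2, a poly(C)-binding protein, fell to 82.1% in KO (43 and 197 reads), against 94.3% in WT (16 and 265 reads; Fisher's exact adjusted p = 0.000531). A row of mutually exclusive exons in that gene was also called, at 70% in KO and 90.8% in WT. Its far deeper 87 nt cassette exon was not called, at 94.3% in KO (4887 reads) and 93.0% in WT (6704 reads). PTBP1, the broadly expressed relative of PTBP2, had an exon at 80.5% in KO (2119 reads) and 81.4% in WT (2423 reads), and SRSF2, another SR protein, an intron at 61.8% in KO and 65.7% in WT. Neither PTBP1 nor SRSF2 was called.

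Galectins, lectins and enzymes of O-glycans and sialic acid had a called event in 3 of 5 tested genes of 20 on the list. The calls were 1 higher and 2 lower in KO, beside 7.05% of all tested genes. This list, too, was chosen with earlier results of these data known, so its share does not test for enrichment. With the same division of the chi-square none of the 3 kept its call. A 158 nt exon of ST6GAL1, the sialyltransferase that builds the ligand of CD22, rose to 94.1% in KO (5 exclusion and 80 inclusion reads), against 67.8% in WT (19 and 40 reads; Fisher's exact adjusted p = 0.00189). A 69 nt exon of GALNT2, which starts O-glycan chains, fell to 15.1% in KO (90 and 16 reads), against 46.4% in WT (37 and 32 reads; Fisher's exact adjusted p = 0.000441). A 57 nt exon of LGALS8, a galectin, fell to 37.5% in KO (30 and 18 reads), against 72.7% in WT (12 and 32 reads; Fisher's exact adjusted p = 0.0177). GALNT7, another enzyme of O-glycan synthesis, was not called at 95.7% in KO and 87.5% in WT.

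**Figure D4:**
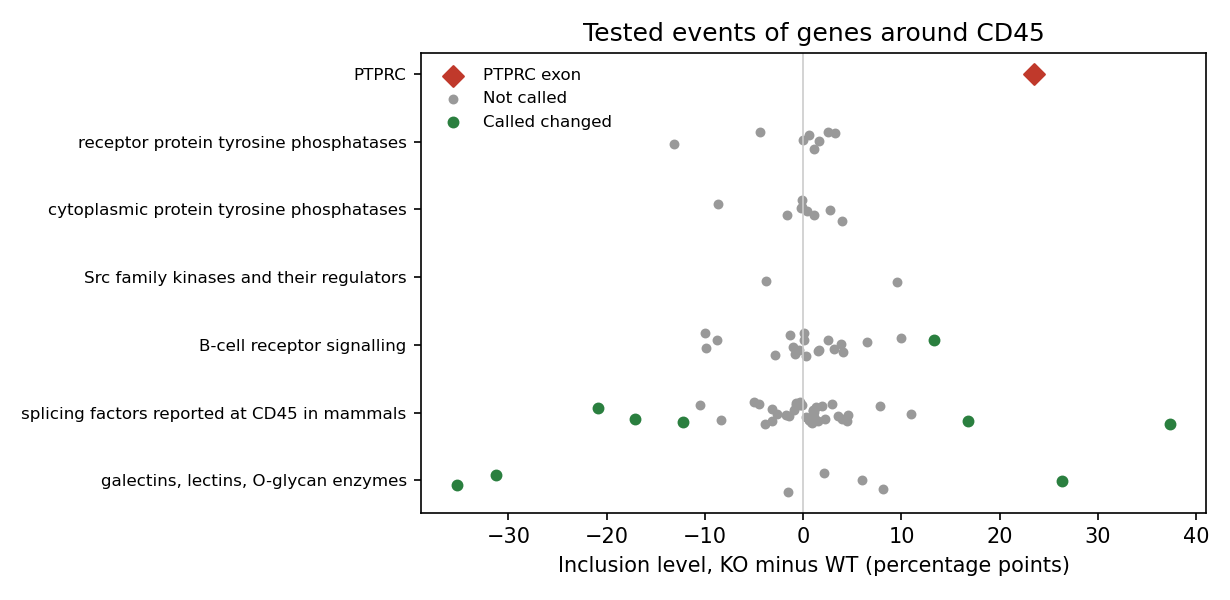
Difference in inclusion level, KO minus WT in percentage points, for each tested event of the 6 gene lists around CD45 (points, spread vertically for legibility) and for the PTPRC exon (diamond, at 23.5). Events called changed are green. The phosphatase and Src family kinase lists hold none, but only 4, 4 and 2 of their genes were tested. These are too few to tell 0 calls from the 7.05% of all tested genes.

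The table lists only genes with a splicing event, so it can show that a marker is present but not that it is absent. Of 19 B-lymphoid markers 14 were listed, with 12021 reads in KO and 10971 in WT, among them BLNK, POU2AF1, IKZF1, CD72 and IRF4. Of 15 T-lymphoid markers 4 were listed, with 5895 reads in KO and 861 in WT. Most of these were of CD3D, a subunit of the T-cell receptor complex, with 5760 in KO and 743 in WT. The CD3D sums include a row with 3 numbers per library, equal at 1667 each in KO, so the sums need not count distinct reads. With rows of 2 numbers alone, the list had 894 reads in KO and 187 in WT. Without CD3D the list had 135 reads in KO and 118 in WT over 3 genes, and BCL11B was at 0 in both libraries. Of 10 myeloid markers 3 names were listed, with 280 reads in KO and 357 in WT, and of 8 fibroblast markers 0 were listed. CD3D and PTPRC reads were thus both higher in KO. Of the other listed T-lymphoid markers, CD8A was also higher in KO (108 in KO, 80 in WT) and CD247 was lower (27 in KO, 38 in WT). Among the B-lymphoid markers, IKZF3 (440 in KO, 191 in WT) and LYN (417 in KO, 224 in WT) were also higher in KO. So were CD72 (705 in KO, 430 in WT), POU2AF1, IRF4, IGLL1, EBF1 (67 in KO, 36 in WT) and CD79B (26 in KO, 13 in WT). The POU2AF1 sum includes a row with 3 or more numbers, and the IGLL1 rows have nearly the same exclusion reads. These sums, and the B-lymphoid total, need not count distinct reads either. BCL6 (63 in KO, 62 in WT) and CXCR5 (7 in KO, 6 in WT) were nearly equal. BLNK (3888 in KO, 3966 in WT) and IKZF1 (1979 in KO, 2017 in WT) were only slightly lower. TCF3 (376 in KO, 433 in WT) and BACH2 (8 in KO, 23 in WT) were lower. Whether the make-up of the cells differed, or had a part in the PTPRC result, was not tested. SRSF10 itself had 0 rows, so the KO label could not be checked on its target gene.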

How the data were processed

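Poly(A) RNA of 2 DT40 lines was sequenced in paired-end libraries, per the labels' protocols. The submitters' processing notes name galGal4, TopHat2 2.0.6 and Cufflinks, but the sources used here do not name the event caller. The authors deposited 1 table with exclusion and inclusion read counts per event and library, per the file headers. They look unnormalized. Beside them stands an adjusted p-value that the authors deposited without naming its test.

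Of 10652 rows, 276 with 3 or more numbers per library were left out of tests and 57 repeated rows were removed, leaving 10319 events. Names were matched to the GRCg7b gene table, for symbols only (4468 of 5524, 80.9%). Exon length is end minus start plus 1. Events with at least 20 reads per library were tested as described above, on reads treated as independent. A floor of 3 counts was not needed for PTPRC. The members and lists were chosen with earlier results of these data known. Named were every PTPRC row, the 5 nearest exons (1 per gene), every called list member but 1, which is not reported here, and up to 3 members per list with the most reads. EPRS, GLCCI1, IMPDH2, ASPM, ZBTB41 and the comparisons by depth, read ratio and neighbourhood were chosen after their values were seen. Tests ran in SciPy 1.17.1 under Python 3.11.15, tables in pandas 2.3.3 and NumPy 2.4.6, and plots in matplotlib 3.10.9.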

Additional observations from a re-analysis of the deposited data

Results flagged for a closer look

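Rows with 3 or more numbers per library lay outside the tested events, and 4 of them, in genes of the lists or markers above, had more reads in KO than in WT. They were picked for having more reads in KO, so their shared direction is not a result. Rows of such genes with equal or fewer reads in KO were not counted. CD3D had 5001 reads in KO and 674 in WT over its 3 numbers, a ratio of 7.42. The numbers were 1667, 1667 and 1667 in KO and 207, 260 and 207 in WT, so the sums need not count distinct reads. PTPRS, a receptor-type phosphatase, had 62 reads in KO and 11 in WT. SRSF7, an SR protein, had 748 in KO and 610 in WT, and POU2AF1, a B-cell transcription coactivator, had 2337 in KO and 2062 in WT. The order of such numbers is not explained in the table, so no inclusion level was computed.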

How the results depend on the processing

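Merging rows and Wilson intervals cannot move the PTPRC difference of 23.5 points, since there is 1 row and its level is the same under either interval. With inclusion reads halved, because 2 junctions can support inclusion and 1 supports exclusion, the difference became 36.8 points (96.1% in KO, 59.3% in WT). The table does not state how inclusion reads were counted. The ratio of KO to WT read shares, 1.48, was 1.45 over cassette rows alone and 1.495 without repeated counts. It was not recomputed with inclusion reads halved. The 286 called events became 156 with differences of at least 20 points, and 917 with differences of at least 10 points and no test. They became 172 with the authors' adjusted p, counted over listed events with no minimum of reads or difference. They became 55 with the chi-square divided by the inflation of its event type, an alternative chosen after seeing the data. Events of undefined type, with a factor of 0.162, were not divided. The 132 called cassette exons became 64, 402, 130 and 12 in the same settings, and 85 with inclusion reads halved. The 8 called list genes became 5 with at least 50 reads, 5 with differences of at least 20 points, 10 with no test and 0 with the inflation divided out. Minimum reads of 10, a minimum difference of 0 points and an adjusted p under 0.01 kept every count they were run on within 1.5 times. No paired analysis was possible because each genotype has 1 library.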

Other observations

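At its alternative 5' site, CD3D had 643 exclusion and 116 inclusion reads in KO, against 63 and 6 in WT. The total was 11 times as high in KO, at 759 reads, against 69 in WT, while the inclusion level was 15.3% in KO and 8.70% in WT. CD3D was singled out after its values were seen. Among the B-lymphoid markers, IKZF1, the transcription factor Ikaros, had a 135 nt cassette exon that fell to 34.3% in KO (302 exclusion and 158 inclusion reads), against 48.1% in WT (293 and 272 reads; Fisher's exact adjusted p = 0.00037), a direction opposite to that of the PTPRC exon. That call was lost with the inflation divided out. IGLL1, an immunoglobulin light chain gene, was called lower in KO at 3 rows that have nearly the same exclusion reads (41, 41 and 43 in KO, 15 in each row in WT), so these are not separate observations. Its alternative 3' site lost the call with the inflation divided out. The other rows kept theirs, but they are of undefined type. The factor of that type, 0.162, would have raised the chi-square, so it was not divided.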
